A study of Homo sapiens with 6 samples.

Results

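The salt-inducible kinases and the cAMP-CREB coactivators they control were followed here as 10 genes out of the 60671 in each deposited table: the kinases SIK1, SIK1B, SIK2 and SIK3, the coactivators CRTC1, CRTC2 and CRTC3, the transcription factors CREB1 and CREM, and the cAMP phosphodiesterase PDE4D. Each gene was found by its Ensembl identifier, and SIK1 and SIK1B, which are near-identical copies, were also taken as a sum. The set was selected on values of the comparison described here, in which SIK1 had passed the edgeR test, so the levels and fold changes of the 10 genes are given as a description. The cells were KGN cells, a human granulosa cell tumor line, edited so that their genotype was FOXL2 WT/WT, with 2 wt alleles. They received 30 pmol of siRNA against FOXL2 (3 libraries) or the same amount of a scrambled control siRNA (3 libraries), and RNA was taken after 30 h for stranded mRNA sequencing with single reads. Each FOXL2 siRNA library came from another pool of 3 siRNAs drawn from 4, with 1 siRNA common to all pools, so that the libraries replicate the depletion and not the mixture. The labels name no separate cultures or days, and the spread between libraries may be technical.

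In cells that respond to a hormone through a Gs-coupled receptor, adenylyl cyclase makes cAMP, which activates protein kinase A (PKA). The salt-inducible kinases belong to the AMPK-related kinases that LKB1 switches on. They phosphorylate the CRTC coactivators and the class IIa histone deacetylases, which are then held in the cytoplasm by 14-3-3 proteins. PKA phosphorylates the kinases in turn and relieves this block, and CRTCs freed of phosphate by calcineurin enter the nucleus and join CREB on genes with a cAMP response element. SIK1 is itself such a gene, as are PDE4D, which degrades cAMP, and the short CREM product ICER, which represses CREB targets. In granulosa cells this is the pathway of follicle-stimulating hormone.

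The depletion and the cells were looked at first. FOXL2 itself stood at 9.88, 9.71 and 10.8 CPM (counts scaled to library size, TMM-normalized) in control siRNA replicates 1 to 3 and at 2.64, 3.31 and 2.36 CPM in FOXL2 siRNA replicates 1 to 3, so that 27.3% remained. The total of expected counts lay between 23843192 and 28791954 per library. The first principal component of log2 CPM took up 31.2% of the variance, and FOXL2 siRNA replicate 2 scored 40.9 on it, while the other 5 libraries scored from -17.2 to -0.02. Of 12 granulosa markers, 6 passed the filter on low counts and 2, FSHR and WT1, were at 0 in all 6 libraries, while GATA4 and AMHR2 did not exceed 1 count. CYP19A1 and INHA did not exceed 3 and 5 counts. The summed level of the 12 markers was 105.6 to 117.3 TPM (a level per transcript length) with control siRNA and 91.2 to 109.6 TPM with FOXL2 siRNA. Most of it came from NR5A1, INHBA and AMH, with means of 34.9, 34.0 and 28.4 TPM in the control libraries. Of 10 markers of other ovarian cell types, 4 passed the filter, and LHCGR and DDX4 were at 0 in all libraries. The summed level of these 10 was 12.2 to 18.4 TPM with control siRNA and 14.2 to 15.4 TPM with FOXL2 siRNA. Most of that sum came from the stroma marker DCN, with a mean of 14.2 TPM in the control libraries. The receptors for follicle-stimulating hormone (FSHR) and for luteinizing hormone (LHCGR) were thus listed at 0 counts in every library, which allows up to 3 counts in each, for counting error alone.

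SIK1 (ENSG00000142178, chr21:43414483-43427189, minus strand) and SIK1B (ENSG00000275993, chr21:6111134-6123739, plus strand, both GRCh38) have to be read together. In GENCODE v29 the full-length SIK1 transcript has 4805 nt and its SIK1B counterpart has 4705 nt. The latter lines up with the former without a gap, after 61 nt that only the SIK1 transcript has at its 5′ end and before 39 nt at its 3′ end. The aligned bases are 99.9% identical, with 7 substitutions, of which 2 lie in the 2352 coding bases and 5 in the 3′ UTR. The coding pair is shown because it is the only place in the coding part of these transcripts where a read can tell the copies apart. The stretch is exonic and coding, at chr21:43417643-43417703 on the minus strand for SIK1 and at chr21:6120558-6120618 on the plus strand for SIK1B, and capitals mark the bases that differ.
SIK1: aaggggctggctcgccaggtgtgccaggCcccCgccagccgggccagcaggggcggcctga
SIK1B: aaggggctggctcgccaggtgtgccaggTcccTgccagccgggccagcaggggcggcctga
Counted from the 5′ end of the full-length SIK1 transcript, the coding substitutions are C2038T and C2042T, with the base of SIK1 first. Of the 4731 windows of 75 nt, the length of a read, in that transcript 4234 (89.5%) are also found in a SIK1B transcript, and of the 4631 in the full-length SIK1B transcript the same number (91.4%) are found in a SIK1 transcript. The authors' annotation may differ from GENCODE v29, since RSEM's length for SIK1B in FOXL2 siRNA replicate 1 was 4747 nt, above that of the longest SIK1B transcript there. Gene-level counts of the copies rest for most reads on how RSEM divides them. The level given for each copy is thus what RSEM assigned to it. Whether the 2 annotated loci are separate genes in these cells was not tested.

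**Figure D1:**
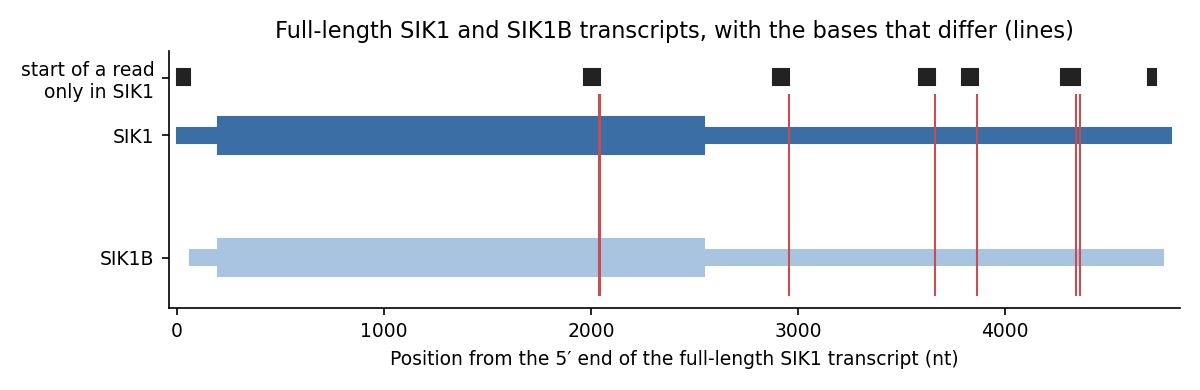
The full-length SIK1 and SIK1B transcripts along the position from the 5′ end of the SIK1 transcript (nt), with the coding part drawn thick, the 7 substitutions as lines and, at the top, the places where a 75 nt read would start if it were found only in SIK1. These places surround the substitutions and the 2 ends, and elsewhere a read fits both genes.

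The SIK1 promoter is shown as well, since SIK1 is known as a target of CREB. RefSeq (GRCh38.p14) promoter windows, which run from 250 bases before to 50 bases after a start site, were at hand for 8 of the 10 genes, and none was at hand for SIK1B and CRTC2. They were searched on both strands for the cAMP response element TGACGTCA, for its core TGACG, of which the full element holds 2 that overlap, and for the forkhead word TGTTTAC. The 250 bases before the SIK1 start site (chr21:43427132-43427381, minus strand) held 3 cores, which begin 217, 137 and 126 bases upstream and read CGTCA on this strand, in capitals. CREM has 7 windows, and 2 of them, which overlap, hold the same full element. Its 150 bases before the start site at chr10:35195902 (chr10:35195752-35195901, plus strand) are shown with the element, 50 bases upstream, in capitals.
SIK1: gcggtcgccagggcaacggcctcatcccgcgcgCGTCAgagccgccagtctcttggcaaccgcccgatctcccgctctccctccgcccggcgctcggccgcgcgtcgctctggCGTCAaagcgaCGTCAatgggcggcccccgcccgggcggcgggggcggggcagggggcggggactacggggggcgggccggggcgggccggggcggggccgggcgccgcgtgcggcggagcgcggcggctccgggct
CREM: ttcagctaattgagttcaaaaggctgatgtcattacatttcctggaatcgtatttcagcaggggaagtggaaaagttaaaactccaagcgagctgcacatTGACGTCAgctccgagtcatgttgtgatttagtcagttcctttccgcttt
Of all 35116 windows, 1.85% held the full element, 24.6% at least 1 core and 1.398% at least 3. SIK2 and SIK3 had 2 cores each, CRTC3 had 1, 1 of the 8 PDE4D windows had 1, and the windows of CREB1 and CRTC1 had none. A further CREM window, at the start site chr10:35127227, had 2 cores without the full element. The forkhead word was in none of the 21 windows of these genes and in 3.42% of all windows. A match to letters is not a bound site, and a window without one does not speak about the factor.

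The CPM of SIK1 and of SIK1B were higher in all FOXL2 siRNA libraries than in all control libraries, but of the copies only SIK1 passed the edgeR test on counts, and its TPM overlapped between the groups. The reads RSEM gave to the pair were whole numbers in all 6 libraries once summed (to the 2 decimals deposited), at 351, 358 and 416 with control siRNA and at 670, 508 and 682 with FOXL2 siRNA, although neither copy had a whole count in any library. As normalized levels the pair stood at 13.99, 14.6 and 15.5 CPM against 24.5, 20.99 and 23.7 CPM. The lowest FOXL2 siRNA library, replicate 2, lay above the highest control library, and the groups did not overlap. The mean went from 14.7 ± 0.771 to 23.1 ± 1.84 CPM (SD, n = 3 each), a ratio of 1.57 and a log2 fold change of 0.65 with an SE of 0.0911.

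Taken alone, SIK1 had expected counts of 218.7, 226.1 and 240.0 with control siRNA and 399.2, 336.3 and 369.1 with FOXL2 siRNA. Its levels were 8.73, 9.22 and 8.96 CPM against 14.6, 13.9 and 12.8 CPM, with no overlap and a log2 fold change of 0.62 (SE 0.0950). SIK1B had 5.26, 5.39 and 6.57 CPM against 9.92, 7.11 and 10.9 CPM, also without overlap, and a log2 fold change of 0.70 (SE 0.173). Its expected counts did overlap, since the 171.7 of FOXL2 siRNA replicate 2 lay under the 176.0 of control siRNA replicate 3. The share of the pair's counts that RSEM gave to SIK1 ran from 54.1% to 66.2% over the 6 libraries, with a mean of 61.1% ± 2.94 in the control group and 60.0% ± 6.05 in the FOXL2 siRNA group (SD, n = 3 each), and the groups overlapped.

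**Figure D2:**
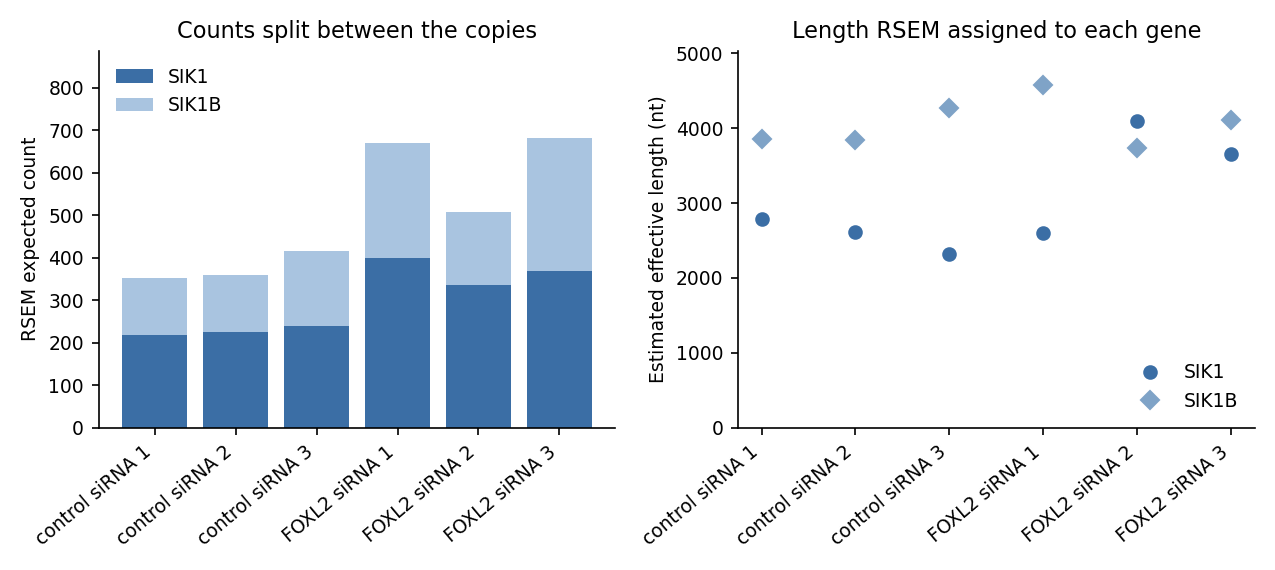
Left, RSEM expected counts of SIK1 (dark) and SIK1B (light) stacked for each library. Right, the effective length (nt) RSEM estimated for each gene in that library. The stacks reach 351 to 416 in the control libraries and 508 to 682 in the FOXL2 siRNA libraries, and the SIK1 length is 4103 nt in FOXL2 siRNA replicate 2 against 2326 to 2792 nt in the control libraries.

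On the TPM scale, which divides by length, the SIK1 difference was smaller. SIK1 stood at 4.64, 5.26 and 5.59 TPM with control siRNA and at 8.21, 5.34 and 5.20 TPM with FOXL2 siRNA, so that replicates 2 and 3 lay within the control range and only replicate 1 above it. The effective length RSEM estimated for SIK1 was 2792, 2615 and 2326 nt in the control libraries and 2607, 4103 and 3651 nt in the FOXL2 siRNA libraries. It is a mean over the 6 SIK1 transcripts of the tables, of up to 4805 nt, weighted by their estimated amounts, and its log2 ratio between the groups, 0.42, was larger in size than that of 97.7% of the genes tested. With the effective length as an offset in edgeR, the log2 fold change of SIK1 was 0.25 (SE 0.196). SIK1B kept its value, at 2.03, 2.09 and 2.24 TPM against 3.17, 3.00 and 3.92 TPM with no overlap and 0.67 (SE 0.1503) with the offset. The sum lay between these, at 6.67, 7.35 and 7.83 TPM against 11.4, 8.34 and 9.12 TPM, with no overlap, a ratio of 1.32 and a log2 fold change of 0.40 (SE 0.141) with the offset. Like the counts, the lengths of the copies rest on how RSEM divides the shared reads. Whether SIK1 and SIK1B themselves differ in this was not tested.

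In edgeR's quasi-likelihood test on counts, 40 of 15663 genes (0.255%) passed an adjusted p of 0.05, and SIK1 was among them, while SIK1B was not. In a second fit, with the pair as 1 row in place of its copies, the sum passed too. This test chose SIK1 for description and is not independent of it. The SIK1 call was lost when any of control siRNA replicates 1, 2 or 3, or FOXL2 siRNA replicate 1 or 3, was left out, with log2 fold changes of 0.60, 0.64, 0.61, 0.57 and 0.67. It held without FOXL2 siRNA replicate 2 (0.61), where SIK1B (0.85) and SIK2 (-0.37) were called too. The SIK1 call was also lost with limma-voom, with limma on TPM, with effective lengths as offsets and with the replicate block, and it held in DESeq2.

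SIK2, the kinase best known from fat and liver, varied among the FOXL2 siRNA libraries. At chr11:111602391-111730853 (plus strand), it stood at 44.4, 42.8 and 44.7 CPM in the control libraries and at 32.3, 48.2 and 35.7 CPM in the FOXL2 siRNA libraries. Replicates 1 and 3 lay under all control libraries and replicate 2 above them, which gave a log2 fold change of -0.19 (SE 0.132) over the 3 pools. Pool and library cannot be told apart, since each pool was sequenced once. Replicate 2 is also the library that scored 40.9 on the first principal component over all genes, and FOXL2 was at its highest of the 3 pools, 3.31 CPM, in it. The estimated effective length of SIK2 was lower in all 3 FOXL2 siRNA libraries, at 7725, 8769 and 8047 nt against 9449, 9448 and 9110 nt, with no overlap. In TPM SIK2 was therefore at 6.97, 6.75 and 7.12 against 6.12, 8.66 and 6.58, and its log2 fold change with the length offset was 0.03 (SE 0.113). SIK2 shares 150 exonic bases with PPP2R1B on the other strand. The libraries were stranded, but the sources used here do not say whether the counting used the strand. The SIK2 count was whole in 5 of 6 libraries, and it was 882.2 in FOXL2 siRNA replicate 1.

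SIK3 (chr11:116843402-117098437, minus strand), a broadly expressed kinase, had the smallest log2 fold change of the kinases on counts, though with the length offset it had 0.12 and SIK2 less. It stood at 24.8, 24.1 and 27.9 CPM with control siRNA and 26.7, 25.4 and 26.8 CPM with FOXL2 siRNA, with a log2 fold change of 0.04 (SE 0.0817). In TPM the groups did not overlap, at 7.73, 8.09 and 8.09 against 8.63, 9.20 and 8.28, a ratio of 1.09.

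**Figure D3:**
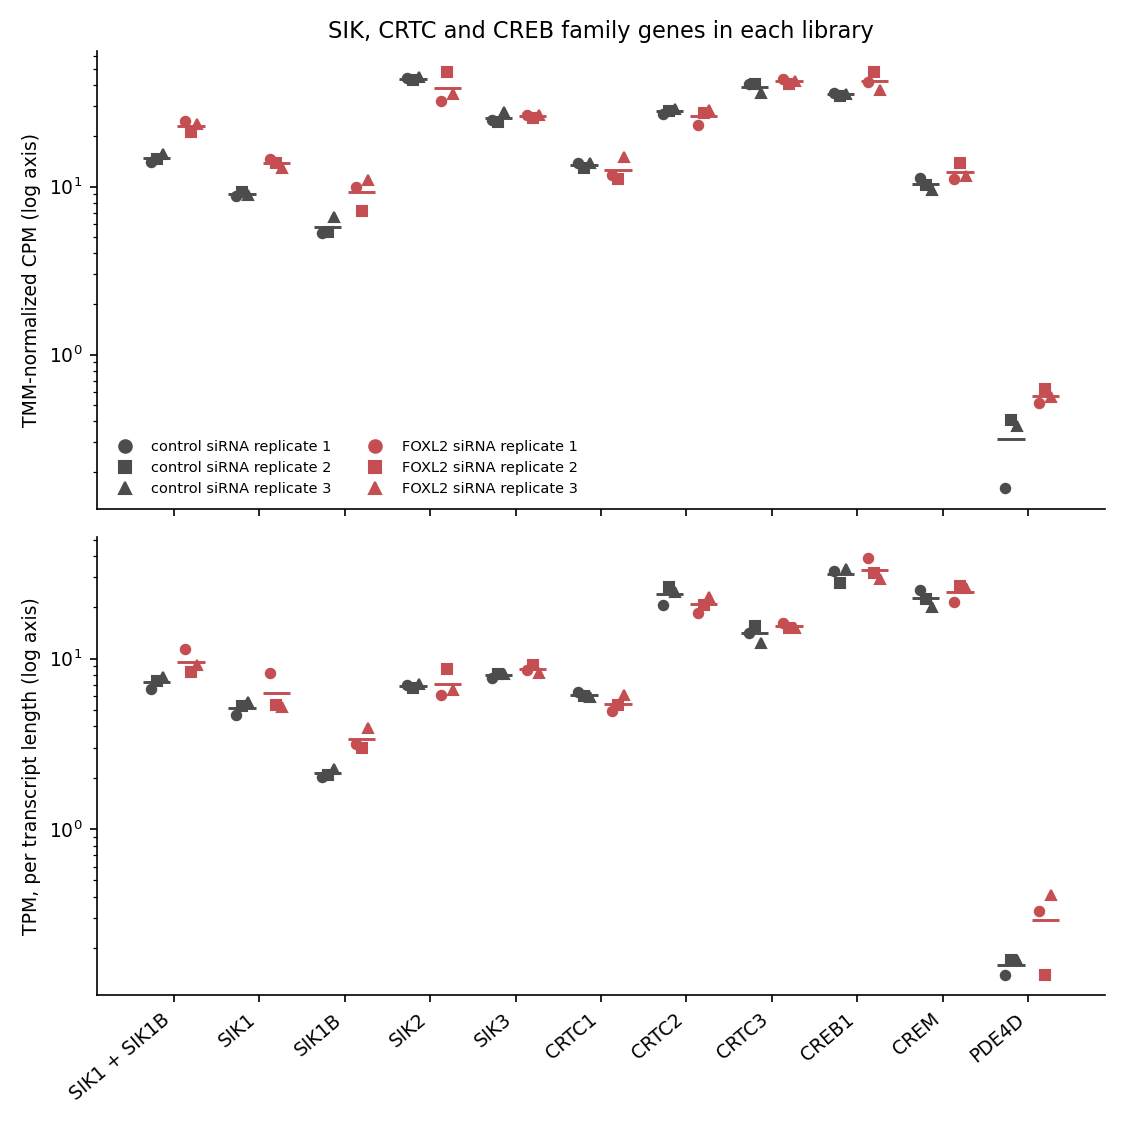
Level of each gene in each library as TMM-normalized CPM (top) and as TPM (bottom), both on log axes, with control siRNA in gray, FOXL2 siRNA in red, a symbol for each replicate and a line at the mean of 3 libraries. SIK1, SIK1B, CREB1 and PDE4D do not overlap in CPM, SIK1B and SIK3 do not overlap in TPM, and SIK2 spreads from 32.3 to 48.2 CPM among the FOXL2 siRNA libraries.

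The 3 coactivators differed little between the groups. CRTC1 (chr19:18683677-18782333, plus strand), best known from neurons, stood at 13.8, 12.9 and 13.8 CPM against 11.6, 11.2 and 15.0 CPM, with a log2 fold change of -0.10 (SE 0.123). CRTC2 (chr1:153947669-153958625, minus strand), which serves glucose production in the liver, stood at 27.1, 27.96 and 28.95 CPM against 23.3, 27.5 and 28.5 CPM and had -0.09 (SE 0.0904). CRTC3 (chr15:90529925-90645345, plus strand) stood at 40.7, 41.0 and 36.1 CPM against 43.7, 40.8 and 42.7 CPM and had 0.11 (SE 0.0750). The libraries of the groups overlapped for all 3 in CPM and in TPM. With the length offset the log2 fold changes of CRTC1, CRTC2 and CRTC3 were -0.17 (SE 0.115), -0.20 (SE 0.113) and 0.15 (SE 0.0932).

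Of the transcription factors, CREB1 (chr2:207529737-207603431, plus strand), which binds the cAMP response element, stood at 36.1, 34.8 and 35.6 CPM with control siRNA and at 41.7, 48.3 and 37.6 CPM with FOXL2 siRNA. All 3 FOXL2 siRNA libraries lay above the controls, replicate 2 the farthest, and the log2 fold change was 0.26 (SE 0.0940), or 0.15 without that replicate. In TPM the groups overlapped, at 32.6, 27.8 and 33.8 against 39.1, 31.7 and 29.3, and the length offset left 0.08 (SE 0.129). CREM (chr10:35126791-35212958, plus strand), whose products include activators and repressors, stood at 11.2, 10.2 and 9.59 CPM against 11.1, 13.8 and 11.6 CPM, with overlap and a log2 fold change of 0.23 (SE 0.115). Its effective length was 661 to 689 nt in the control libraries and 661 to 813 nt in the FOXL2 siRNA libraries, while the 48 CREM transcripts of the tables have 415 to 2306 nt. The gene-level tables do not separate ICER from the others.

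PDE4D (chr5:58969038-60522120, minus strand) was close to the lower limit of the measurement. It had 4, 10 and 10 counts with control siRNA and 14, 15 and 16 counts with FOXL2 siRNA, or 0.159, 0.408 and 0.373 CPM against 0.512, 0.620 and 0.555 CPM. The groups did not overlap and the log2 fold change was 0.83 (SE 0.376), but in TPM they did, at 0.14, 0.17 and 0.17 against 0.33, 0.14 and 0.41. PDE4D passed the filter on low counts through the FOXL2 siRNA group alone, with 3 libraries over the limit against 1 control library, so that a difference in this direction was needed for it to be tested.

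All 10 genes passed that filter, and 1 of them, SIK1, passed the edgeR test against 0.255% of all genes tested. In 4 of them (SIK1, SIK1B, CREB1 and PDE4D) the CPM of the groups did not overlap, all higher with FOXL2 siRNA, against 20.5% of all genes in either direction. In TPM this held for 2, SIK1B and SIK3, against 18.4%. SIK1 and SIK1B do not count as separate cases here, since RSEM divides shared reads between them. PDE4D had passed the filter through the FOXL2 siRNA group alone. For these reasons, and because the set was chosen on this comparison, nothing is read from these shares. The log2 fold change was positive for 7 of the 10, and for 8 with the length offset, and its median over all genes tested was 0.01, with a median size of 0.12.

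**Figure D4:**
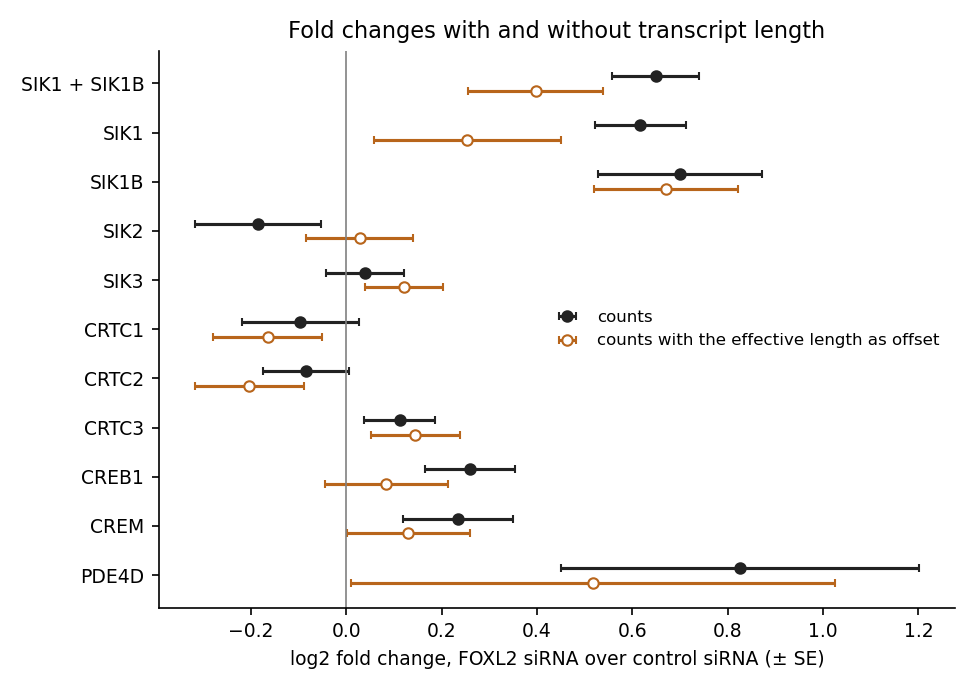
Log2 fold change of FOXL2 siRNA over control siRNA for each gene and for the SIK1 + SIK1B sum, from counts (filled) and with the effective length as an offset (open), with bars of 1 SE (n = 3 libraries each). SIK1 goes from 0.62 to 0.25 and SIK2 from -0.19 to 0.03, while SIK1B stays at 0.70 and 0.67.

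Per transcript length, the transcription factors and CRTC2 were the most abundant of the genes and PDE4D the least. In the control libraries CREB1 had 31.4 ± 3.19 TPM (SD, n = 3 libraries), followed by CRTC2 at 23.9 ± 2.90 and CREM at 22.6 ± 2.55, whose libraries overlapped. CRTC3 followed at 14.1 ± 1.57 TPM. SIK3 at 7.97 ± 0.208, the SIK1 and SIK1B sum at 7.28 ± 0.583 and SIK2 at 6.95 ± 0.186 TPM overlapped each with its neighbor. CRTC1 at 6.12 ± 0.250, SIK1 at 5.16 ± 0.482, SIK1B at 2.12 ± 0.108 and PDE4D at 0.160 ± 0.0173 TPM then followed without overlap. With FOXL2 siRNA the sum, at 9.61 ± 1.58 TPM, stood above SIK3 at 8.70 ± 0.464, but the libraries of these neighbors overlapped. So did those of SIK3 and SIK2, of SIK2 and SIK1, and of SIK1 and CRTC1.

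Around these genes, 98 others of the pathway were gathered in 10 lists, and 73 passed the filter. None passed the edgeR test, with adjusted p-values of 0.108 and above. At an unadjusted p below 0.05 there were 14 (19.2% of the 73, against 13.5% of all genes tested), 11 higher and 3 lower, and DESeq2 called 4 of the 64 to which it gave an adjusted p, against 3.00% of all 11675 such genes. Run on the genes that edgeR kept, it called the same 4 of 64, against 2.86% of all. The median log2 fold change of the 73 was 0.02.

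Upstream of PKA, the 5 of 11 Gs and adenylyl cyclase genes that passed the filter ran from -0.11 to 0.02. GNAS, the Gs subunit, had 632.2 ± 10.4 CPM with control siRNA and 602.4 ± 35.8 with FOXL2 siRNA (SD, n = 3 each), and ADCY9, a cyclase, had a log2 fold change of -0.11 (SE 0.0621). Of 9 Gs-coupled receptors 5 passed, with a median of 0.33. ADORA2B, an adenosine receptor and both the most abundant and the most different of them, stood at 8.25, 6.94 and 9.81 CPM against 13.2, 11.1 and 13.04 CPM. Its groups did not overlap, and its log2 fold change of 0.58 (SE 0.138) had an adjusted p of 0.131 in edgeR. All 9 genes of PKA subunits and inhibitors passed the filter, from -0.11 to 0.17, with PRKAR1B at 0.17 (SE 0.0849) and the most abundant, the regulatory subunit PRKAR1A, at -0.01 (SE 0.0772). Among 15 other cAMP phosphodiesterases 9 passed, with a median of 0.00. PDE4B, of the same subfamily as PDE4D, had a log2 fold change of 0.37 (SE 0.167), and PDE1C, the most abundant, one of -0.10 (SE 0.1003).

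Among the LKB1 complex and the AMPK-related kinases, from which the SIKs come, 15 of 16 passed the filter. Their log2 fold changes ran from -0.48 to 0.52 with a median of 0.06, and 8 were positive. An unadjusted p below 0.05 in edgeR was found for 4 (26.7%, against 13.5% of all genes tested), all higher. NUAK2 stood at 9.73, 10.2 and 10.5 CPM with control siRNA and 16.8, 13.4 and 13.7 CPM with FOXL2 siRNA, without overlap. Its log2 fold change of 0.52 (SE 0.113) had an adjusted p of 0.108 in edgeR. PRKAA1, a catalytic AMPK subunit and the most abundant of the list, had 0.06 (SE 0.109). The other 3 of the 4, named after their values were seen, were NUAK1, STRADB and PRKAA2. NUAK1 had 0.32 (SE 0.0675) and STRADB, a partner of LKB1, had 0.28 (SE 0.0678). PRKAA2, also a catalytic AMPK subunit, had 0.44 (SE 0.154).

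On the side of the SIK substrates, HDAC5, a class IIa deacetylase, stood at 33.0, 35.5 and 36.6 CPM against 25.1, 32.0 and 29.1 CPM, without overlap, with a log2 fold change of -0.29 (SE 0.0975) and an adjusted p of 0.267 in edgeR. HDAC7, the most abundant of the 4, had -0.08 (SE 0.0734). At an unadjusted p below 0.05 there were 2 of these 4, HDAC5 lower and HDAC4 higher at 0.25 (SE 0.103), against 13.5% of all genes tested. All 4 calcineurin subunits passed the filter, and PPP3R1 had the largest difference at 0.17 (SE 0.116). Of 7 genes for 14-3-3 proteins 6 passed. YWHAG stood at 327.3, 319.4 and 328.7 CPM with control siRNA and at 198.3, 334.0 and 236.4 CPM with FOXL2 siRNA. As for SIK2, replicates 1 and 3 lay under all control libraries and replicate 2 above them, with a log2 fold change of -0.34 (SE 0.157) and an adjusted p of 0.383 in edgeR. YWHAZ, the most abundant 14-3-3 gene, had 0.06 (SE 0.0715). YWHAH at -0.16 (SE 0.0544) was the 1 gene of the 6 (16.7%, against 13.5% of all genes tested) with an unadjusted p below 0.05.

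At the end of the pathway, ATF1, a CREB relative, had 0.06 (SE 0.112). EP300, an acetyltransferase that CREB recruits, had -0.15 (SE 0.0576) with an adjusted p of 0.328 in edgeR. It was the 1 gene of the 3 in its list (33.3%, against 13.5% of all genes tested) with an unadjusted p below 0.05. Of 20 known CREB target genes 13 passed the filter, with a median log2 fold change of 0.07, 8 of them positive. An unadjusted p below 0.05 was found for 3 of the 13 (23.1%, against 13.5% of all genes tested), all higher: DUSP1, NR4A1 and NR4A2. The 5 with a negative value were AREG at -0.22 (SE 0.155), EGR1 at -0.18 (SE 0.132), FOS at -0.16 (SE 0.226), PER1 at -0.15 (SE 0.0966) and FOSB at -0.11 (SE 0.307). DUSP1, a phosphatase of MAP kinases and the most abundant of the list, stood at 55.2, 58.5 and 72.1 CPM against 90.2, 84.3 and 79.6 CPM, without overlap. Its log2 fold change of 0.45 (SE 0.102) had an adjusted p of 0.119 in edgeR. NR4A2, an orphan nuclear receptor, had 0.917, 0.449 and 0.634 CPM against 1.098, 1.12 and 1.01 CPM, and its 0.68 (SE 0.286) had an adjusted p of 0.349 in edgeR. NR4A1, its relative, had 0.49 (SE 0.186). In CPM the groups did not overlap for PER1, which was lower, and for DUSP1, JUNB, NR4A1 and NR4A2, which were higher. Over all genes tested, 20.5% did not overlap in either direction. STAR, which carries cholesterol into mitochondria, stood at 20.8 ± 1.16 against 21.3 ± 1.47 CPM (SD, n = 3 each) and CYP19A1, the aromatase, did not pass the filter. Of this list, DUSP1 and NR4A2 were named by a rule and the others after their values were seen, as were HDAC4 and YWHAH above.

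**Figure D5:**
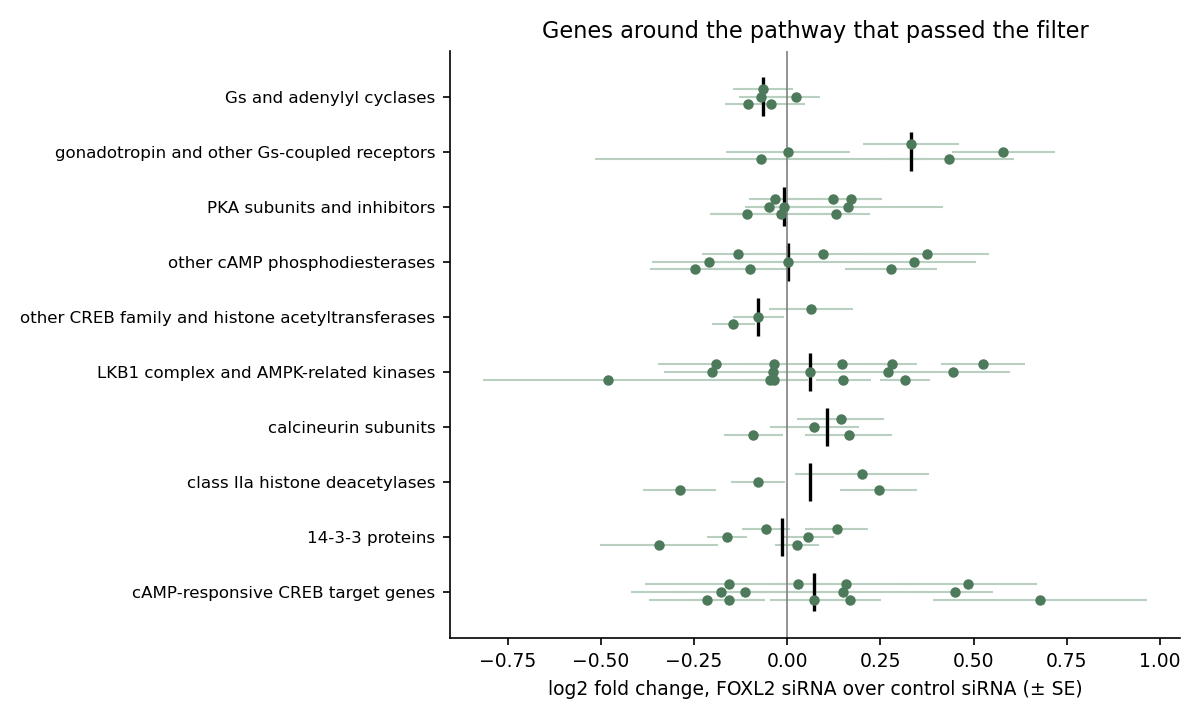
Log2 fold change of FOXL2 siRNA over control siRNA, with bars of 1 SE, for the 73 genes of the 10 pathway lists that passed the filter, with a black line at the median of each list. The medians run from -0.08 to 0.33, and none of the points passed the edgeR test.

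Across the 6 libraries, the genes whose log2 CPM, centered on its own mean, lay closest to that of the SIK1 and SIK1B sum were NUTM2G, LSM11, FAM234B, AC004951.1 and RASEF, with root mean square differences of 0.0638, 0.0642, 0.0673, 0.0701 and 0.0736. LSM11, a subunit of the U7 snRNP, which processes histone mRNA, stood at 12.4, 12.5 and 12.8 CPM against 18.8, 17.3 and 19.2 CPM. NUTM2G was at under 1 CPM in all 6 libraries. The 6 libraries fall into 2 groups, so that any gene with a like difference between them comes close by this measure.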

How the data were processed

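There were 6 RNA-seq samples, 3 per group, grouped by the siRNA their labels name. Per the labels and the study's methods, the authors aligned single reads with STAR 2.7.6a, checked them with Picard 2.8.1 and estimated expression with RSEM 1.3.1. The deposited expected counts of 60671 genes are RSEM's estimated counts, not normalized, and reads that fit several genes are divided among them. The deposited TPM and FPKM values were scaled by the authors' run of RSEM to the library and to a length estimated for each gene in that library, and FPKM was not used. The submitters' processing notes name the build GRCm38, while the gene identifiers of the tables are human. The annotation release is not given in the sources used here. All 145 transcripts listed for the 10 genes are in GENCODE v29, which may still differ from it, and symbols missing in the table of gene names, coordinates and transcripts were taken from v29.

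The expected counts were rounded, filtered with filterByExpr (15663 genes kept) and compared with edgeR 4.0.16 (TMM, glmQLFit, glmQLFTest, Benjamini-Hochberg over all genes tested, threshold 0.05) in R 4.3.3. Log2 fold changes come from this fit, and errors of levels are SDs of 3 libraries. Each SE was derived from the fit, as the size of the log2 fold change over the square root of the test's F statistic. The test was tried on simulated data first. The 10 genes, the pathway lists and the alternatives were chosen with earlier results of these data known. Named are all 10 genes, in each pathway list the tested gene with the largest log2 fold change and that with the highest TPM, any gene called, and the 5 genes closest in profile to the SIK1 and SIK1B sum, and any other gene is said to have been chosen after its values were seen, apart from FOXL2 and the cell type markers. Other settings tried were limma 3.58.1 (voom on counts, or log2(TPM + 1) and log2(TPM + 0.1) where the mean TPM reached 1), DESeq2 1.42.0 and its size factors in edgeR, no filter or a mean of 50 counts, counts not rounded, effective lengths as offsets, a replicate block and leaving out each library. The count of single receptor genes at an unadjusted p is not reported here.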

Additional observations from a re-analysis of the deposited data

How the results depend on the processing

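The number of genes that passed the test, 40 in edgeR, was 350 in DESeq2, which was run without edgeR's filter and gave 11675 genes an adjusted p, 335 in DESeq2 on the genes that edgeR kept (added after seeing the data), 13 with limma on log2(TPM + 1) and 13 with log2(TPM + 0.1), 70 when low counts were not filtered, 64 when genes needed a mean of 50 counts and 11 with the replicate block. Leaving out 1 library gave 2 to 579, the highest without FOXL2 siRNA replicate 2. Of the 10 SIK, CRTC and CREB pathway genes, 1 passed (SIK1), 2 in DESeq2 (SIK1 and SIK1B) with either set of genes, and 0 with limma-voom, with limma on log2(TPM + 1) or log2(TPM + 0.1), with effective lengths as offsets and with the replicate block, and leaving out 1 library gave 0 to 3. Of the 98 genes of the lists, 0 passed in edgeR, 4 in DESeq2 (ADORA2B, NUAK1, NUAK2 and DUSP1, all higher) with either set of genes, and leaving out 1 library gave 0 to 5. The 5 came without FOXL2 siRNA replicate 2, and were ADORA2B, NUAK1 and NUAK2, higher, and HDAC5 and YWHAG, lower.

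The log2 fold change of the SIK1 and SIK1B sum, 0.65, was 0.35 and 0.39 with limma on log2(TPM + 1) and log2(TPM + 0.1) and 0.40 with effective lengths as offsets, which all divide by length. It was 0.60 to 0.71 with 1 library left out. The sum was positive in all 17 alternatives, as were SIK1, SIK1B, CRTC3, CREB1 and CREM, while CRTC1 and CRTC2 were negative in all 17. SIK2 turned from -0.19 to 0.02 or 0.03 in the 3 that divide by length, and SIK3 from 0.04 to -0.003 without control siRNA replicate 2. PDE4D could be fitted in 14 and was positive in those. In the main fit it had passed the filter on low counts through the FOXL2 siRNA group alone, which favored this sign. The alternatives refit the same libraries or a part of them, and the set was chosen on this comparison, in which SIK1 had passed. Agreement in sign between the alternatives is therefore a description of how the values depend on the settings, and not independent evidence of a difference.

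Samples with the same replicate number did not deviate together (correlations of their deviations from the group means of -0.03, 0.05 and 0.05), so no pairing was seen. The labels give both groups the same pool numbers, and with 3 libraries a group these correlations cannot exclude a pairing. With the replicate block the sum had 0.65.

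Depth limits PDE4D most, with 4 to 16 counts a library. With 3 libraries against 3, an exact permutation test of a single value cannot go below a two-sided p of 0.1, and none was run.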

Other observations

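Length mattered for other genes of the pathway as well. With the effective length as an offset, the log2 fold change of PRKAR1A, a regulatory subunit of PKA, went from -0.01 to -0.22, that of the calcineurin subunit PPP3R1 from 0.17 to -0.10 and that of the deacetylase HDAC4 from 0.25 to 0.02. NUAK1 went the other way, from 0.32 to 0.46, and ADORA2B (0.58 and 0.61), NUAK2 (0.52 and 0.55) and DUSP1 (0.45 and 0.48) changed little. These genes were chosen after their values were seen, and none passed the edgeR test on counts. The activin subunit gene INHBB, from the granulosa markers, stood at 14.3 ± 0.213 CPM with control siRNA and 16.6 ± 1.43 CPM with FOXL2 siRNA (SD, n = 3 each), with an adjusted p of 0.352 in edgeR. Of the 6 granulosa markers tested, 3 had a positive log2 fold change. INHBA and AMH, from the same list, had -0.15 (SE 0.132) and -0.185 (SE 0.116), and NR5A1 had 0.04 (SE 0.0714).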
